A study of Homo sapiens with 26 samples.

Results

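The enzymes described here are the 10 genes PPAT, GART, PFAS, PAICS, ADSL, ATIC, IMPDH2, GMPS, CAD and UMPS, of 26485 genes counted in each library. They were picked by gene symbol as enzymes of purine and pyrimidine synthesis, with earlier results of these data known. Counts of them set beside shares of all genes below are therefore descriptive and not a test. All 10 passed the filter on low counts in both tables. KELLY is a human neuroblastoma cell line in which the MYCN oncogene is amplified. A lentiviral vector switched on by doxycycline was carried by 3 KELLY lines, empty in EV (labelled F1HUTG) and with a short hairpin against RUNX1T1 in sh4 and shAMB. Each line gave 3 libraries after 72 h on DMSO, the solvent, and 3 after 72 h on doxycycline, 18 in all. A further 8 libraries came from KELLY tumors grown in mice, 4 labelled Control (genotype WT, control food) and 4 labelled RUNX1T1 KO (doxycycline food). According to the study's methods these tumors were grown under the skin of immunodeficient mice from cells carrying an inducible RUNX1T1 hairpin, so KO stands for an induced knockdown and not for a deleted gene. The paper used the same hairpin for its tumor RNA sequencing and for a culture experiment, and built it from an Ambion sequence. By its name shAMB may be that hairpin, which the labels do not state, so shAMB cells and tumors may share a hairpin. Culture columns are headed Neg and Pos; Neg was taken to be DMSO and Pos doxycycline from the wording only, and every culture direction below depends on it.

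Cells build purines from phosphoribosyl pyrophosphate (PRPP) in a chain of reactions that ends in inosine monophosphate, the branch point to adenine and guanine nucleotides. Pyrimidines are built separately, with the ring made first and then joined to PRPP to give uridine monophosphate. Both routes supply RNA and DNA synthesis, and proliferating tumor cells depend on them heavily. Several of these enzymes are known targets of the MYC family of transcription factors, which bind the DNA motif CACGTG, called the E-box.

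PPAT opens the purine route. GART, PFAS, PAICS, ADSL and ATIC carry out the steps to inosine monophosphate, with GART, PAICS and ATIC each holding more than a single activity on the same protein. IMPDH2 and GMPS form the guanine branch. CAD performs the opening steps of pyrimidine synthesis and UMPS the closing ones. In GRCh38.p14 coordinates PPAT lies at chr4:56393362-56435615 on the minus strand and PAICS at chr4:56410507-56464578 on the plus strand. GART lies at chr21:33503931-33542893, PFAS at chr17:8247608-8270486, ADSL at chr22:40346500-40387527 and ATIC at chr2:215312059-215368592. IMPDH2 is at chr3:49024325-49029398, GMPS at chr3:155869430-155944020, CAD at chr2:27217369-27243943 and UMPS at chr3:124730452-124749273. Exons of other genes in the GENCODE annotation covered 32.8% of the exon bases of IMPDH2 and 11.1% of those of ADSL on the same strand. The transcripts listed with the deposited data are RefSeq ones, and every expected count of these 2 genes was a whole number. How far the overlap touches their counts was not tested.

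PPAT and PAICS are read in opposite directions from neighboring start sites, and their sequences are shown because the 2 genes responded unequally. PAICS has several annotated starts, among them 56410507, inside PPAT. The PAICS start nearest to that of PPAT lies at position 56435752, with 136 bases between them. This stretch, chr4:56435616-56435751 in GRCh38.p14 on the plus strand, is 75% G or C and holds no CACGTG.
Between the PPAT and PAICS starts: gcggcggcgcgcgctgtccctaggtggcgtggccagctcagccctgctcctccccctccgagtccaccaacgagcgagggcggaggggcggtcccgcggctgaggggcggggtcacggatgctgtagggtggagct

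The promoter windows in the RefSeq table (GRCh38.p14) reach from 250 bases before a start site to 50 bases after it, and 8 of the 10 genes had 1 or more. CACGTG, which reads the same on both strands, was found in windows of 3 of these 8 genes, against 12.4% of 10925 genes tested in culture that had a window. A match is a run of letters, not evidence of binding. The PPAT and PAICS match is the same site, beyond the PAICS start as seen from PPAT (chr4:56435780-56435809, minus strand), and ATIC held a site before its start (chr2:215311986-215312045) and another after it (chr2:215312076-215312105), both on the plus strand. Capitals mark the CACGTG.
PPAT and PAICS site: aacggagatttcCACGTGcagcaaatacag
ATIC site before the start: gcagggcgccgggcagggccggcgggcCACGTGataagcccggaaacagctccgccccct
ATIC site after the start: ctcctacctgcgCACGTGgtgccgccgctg

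Library totals were 35115915 to 54736733 expected counts in culture and 47346063 to 62378060 in tumors, and the 10 genes had 4064 to 44608 and 3159 to 36048 expected counts per library. Values below are CPM, counts scaled to library size, after TMM normalization done separately for cultures and tumors. Differences are log2 fold changes from edgeR's quasi-likelihood test, called at a Benjamini-Hochberg adjusted p under 0.05 over all tested genes. RUNX1T1 itself stood at 30.1 to 44.1 CPM in the cultures and 24.3 to 43.1 CPM in the tumors. It changed by -0.16 (EV), -0.11 (sh4), 0.06 (shAMB) and -0.23 (tumors) on the log2 scale, and none passed the test (adjusted p = 0.672, 0.117, 0.378 and 0.229). Between DMSO groups it differed by -0.29 in sh4 against EV on the log2 scale (adjusted p = 0.0144). Set against the response of EV, its response to doxycycline was higher in shAMB by 0.21 (adjusted p = 0.0353) and differed by 0.04 in sh4, not called. The RUNX1T1 transcript therefore does not check the doxycycline and KO labels, and groups are named below as labelled. At the protein level the paper reports lower RUNX1T1 in KELLY cells given doxycycline, with each of its hairpins. It also reports loss of RUNX1T1 staining in KELLY tumors after the knockdown. The libraries described here hold no protein values, so unchanged RNA does not show that the knockdown failed. Summed sympathetic neuroblast markers (8 of 8 genes above 1 CPM in every group) were 2273 to 3217 CPM in culture and 1643 to 3364 CPM in tumors. The red cell genes HBA1, HBA2 and HBB were at 0 in every tumor, and there 4 immune markers summed to at most 2.6 CPM, 4 endothelial markers to at most 1.83 CPM and 5 fibroblast markers to 6.13 to 14.3 CPM. Nothing in the labels says that replicates were separate cultures, so p-values measure the spread between these libraries, which may be technical.

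Expressed per kilobase of transcript, PAICS was the most abundant of the 10 messages in EV cells on DMSO, at 291 ± 14.5 CPM per kb (SD, n = 3). ADSL followed at 129 ± 7.14, then ATIC at 118 ± 1.88, IMPDH2 at 112 ± 8.5, GMPS at 111 ± 8.26 and GART at 102 ± 2.97 CPM per kb. From ATIC down to GART, neighbors in this order overlapped between libraries. PPAT stood lower at 63.9 ± 5.19 CPM per kb. UMPS, PFAS and CAD closed the order at 24.4 ± 0.371, 23.4 ± 2.88 and 22.1 ± 3.15 CPM per kb, each overlapping the next. In control tumors (n = 4) PAICS had the highest mean at 178 ± 20.04 CPM per kb but overlapped ADSL, which was next at 141 ± 18.2. There UMPS had the lowest mean at 24.8 ± 1.7, overlapping PFAS, and ATIC stood in the seventh place at 34.6 ± 5.76 CPM per kb. ATIC was at 147 to 258 CPM in the 18 cultures and at 55.2 to 85.4 CPM in the 8 tumors, with no overlap. Because the 2 tables were normalized separately, these levels are set side by side without a test.

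**Figure D1:**
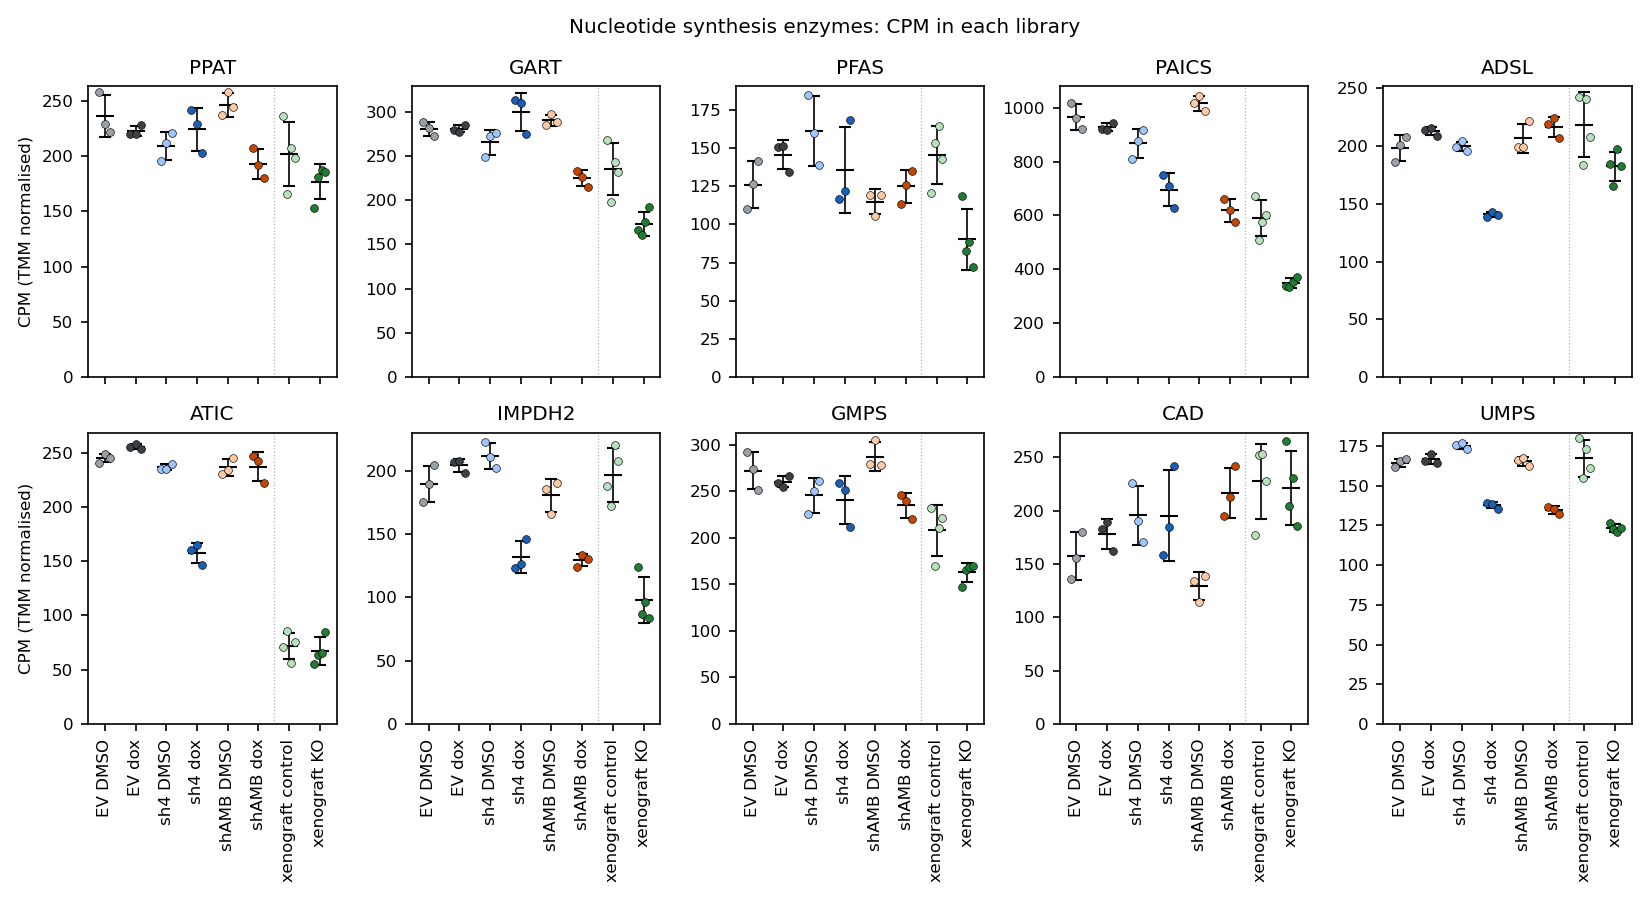
CPM (TMM normalized, linear axes from 0) of the 10 enzymes in each of the 26 libraries, with 1 point per library, the group mean and bars of 1 SD; the dotted line divides cultures from tumors, which were normalized separately. PAICS, IMPDH2 and UMPS sit lower with doxycycline in both hairpin lines and in KO tumors, while ADSL and ATIC drop with doxycycline in sh4 cells.

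In the empty vector line none of the 10 enzymes passed the test with doxycycline. Log2 fold changes ran from -0.09 for PPAT to 0.21 for PFAS, with CAD at 0.18, IMPDH2 at 0.11, ADSL at 0.10, ATIC at 0.06, UMPS at 0.02, GART at 0.00, PAICS at -0.06 and GMPS at -0.07. Adjusted p were 0.672 or more, and none had an unadjusted p under 0.05. Of 14905 genes tested 14 were called, which is 0.0939%. DESeq2 also called none of the 10. With DMSO alone 0 of 10 were called for sh4 against EV and 0 of 10 for shAMB against EV, where 1.12% and 1.52% of all genes were, and DESeq2 called none of the 10 in either. Unadjusted p-values were under 0.05 for 6 of 10 enzymes in sh4 against EV, beside 28% of all genes, and for 0 of 10 in shAMB against EV, beside 11%. The sh4 differences ran from -0.18 for PPAT to 0.36 for PFAS (adjusted p = 0.16), and the shAMB differences from -0.29 for CAD to 0.08 for GMPS.

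With doxycycline 5 of the enzymes fell in sh4 cells and 1 rose. IMPDH2, ATIC, ADSL, UMPS and PAICS fell, and GART rose. Among all genes 40.9% were called in this comparison, with 18% lower and 22.9% higher, so 6 of 10 called is not far from the background while 5 of 10 lower is above it. The median log2 fold change of the enzymes was -0.29, against -0.00 over all genes tested. Summed fibroblast markers, 3 of 5 of them above 1 CPM, were at 37.6 to 47.5 CPM with DMSO and 58.2 to 78.1 CPM with doxycycline in this line, and their part in these values was not tested.

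IMPDH2, which makes xanthosine monophosphate at the entry to the guanine branch, had 223, 210.5 and 202 CPM with DMSO and 123, 127 and 146 CPM with doxycycline. All 3 doxycycline libraries were below all 3 DMSO libraries, and the log2 fold change was -0.68 (SE 0.07, adjusted p = 1.53e-06; values after ± below are SE for log2 fold changes). ATIC, which closes the route to inosine monophosphate, went from 235, 235 and 239.9 CPM to 160.1, 165 and 147 CPM, again without overlap (-0.59 ± 0.05, adjusted p = 6.97e-08). ADSL, which acts both in the chain and in making adenosine monophosphate, had 199, 204 and 196 CPM with DMSO and 139, 143 and 140.4 CPM with doxycycline. Its log2 fold change was -0.50 ± 0.05 (adjusted p = 7.17e-07). ADSL and ATIC were the closest pair among the 45 pairs of enzymes over the 4 main comparisons, at a root mean square difference of 0.0992 in log2 fold change.

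UMPS moved less but with little spread, from 175, 177 and 173 CPM to 139, 139 and 136 CPM (-0.35 ± 0.03, adjusted p = 2.8e-07). PAICS, the most abundant of the enzymes, went from 811, 877 and 918 CPM to 749.9, 708 and 628 CPM, and the groups did not overlap (-0.32 ± 0.07, adjusted p = 0.00108). GART had 249, 272 and 275 CPM with DMSO and 314, 310.3 and 275 CPM with doxycycline, which overlap at the low end. Its rise of 0.17 ± 0.05 (adjusted p = 0.0148) was the smallest called change and was lost without sh4 DMSO replicate 1 (0.12, adjusted p = 0.165), without sh4 doxycycline replicate 1 (0.14, adjusted p = 0.0747) and without sh4 doxycycline replicate 2 (0.15, adjusted p = 0.0713). It was also lost with no filter on low counts (0.15, adjusted p = 0.0707). PPAT, GMPS and CAD gave 0.10, -0.03 and -0.00 and did not pass the test. PFAS gave -0.25 ± 0.13 (adjusted p = 0.144), and without sh4 doxycycline replicate 3, where PFAS and CAD were both highest of that group at 168 and 242 CPM, its value was -0.43 (adjusted p = 0.00478). With the trends of each library along GC content and transcript length removed, PFAS (-0.13, adjusted p = 0.00294) and GMPS (-0.09, adjusted p = 0.00218) were called as lower in sh4.

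In shAMB cells 6 enzymes fell with doxycycline and 1 rose. PAICS, IMPDH2, GART, PPAT, UMPS and GMPS fell, and CAD rose. In this comparison 66% of all genes were called, 28.4% lower and 37.6% higher. The share of enzymes called (7 of 10) was near that background, and 6 of 10 lower was above it. Their median log2 fold change was -0.29, and that of all genes was 0.10. The summed fibroblast markers went the other way here, from 42 to 50.2 CPM with DMSO to 28.6 to 36 CPM with doxycycline, and their part was likewise not tested.

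PAICS fell most, from 1016, 1045 and 987 CPM to 660.5, 621 and 574 CPM, with a log2 fold change of -0.72 ± 0.07 (adjusted p = 1.65e-07). IMPDH2 had 186, 166 and 189.9 CPM with DMSO and 124, 134 and 130.3 CPM with doxycycline (-0.48 ± 0.07, adjusted p = 2.61e-05). In both genes every doxycycline library lay below every DMSO library. GART went from 285, 297 and 289 CPM to 233, 227 and 215 CPM (-0.37 ± 0.05, adjusted p = 1.66e-05). PPAT, which commits PRPP to purines, went from 237, 258 and 244 CPM to 207, 192 and 180.4 CPM (-0.35 ± 0.07, adjusted p = 0.000507). UMPS fell by 0.29 ± 0.03 (adjusted p = 6.64e-07), from 162 to 167 CPM down to 132 to 137 CPM. GMPS, the last enzyme of the guanine branch, fell by 0.29 ± 0.08 (adjusted p = 0.00404). None of these groups overlapped.

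CAD had 134, 114 and 139 CPM with DMSO and 195, 213 and 242 CPM with doxycycline, a rise of 0.75 ± 0.15 (adjusted p = 0.000355). This value changed when the trends of each library along GC content and transcript length were removed. CAD and PFAS have the highest GC content of the 10 genes, 57.7% and 59%, against a median of 48.7% over genes tested, and PPAT and GMPS the lowest, 38.1% and 41.3%. CAD is also the longest of the 10, at 7113 bases, and the 2 trends were removed together, so their shares cannot be told apart here. After the removal CAD rose by 0.10 (adjusted p = 0.00134). PFAS, at 0.12 and not called as measured, became -0.54 (adjusted p = 1.24e-10). Under the same removal PPAT, GMPS and GART stayed called at smaller values, -0.14, -0.07 and -0.25. PAICS was at -0.54, IMPDH2 at -0.52 and UMPS at -0.35, all called, and ADSL and ATIC, at 0.07 and 0.00 as measured, were called at 0.26 and 0.12. Which of the 2 sets of values is nearer to the RNA in the cells was not tested.

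**Figure D2:**
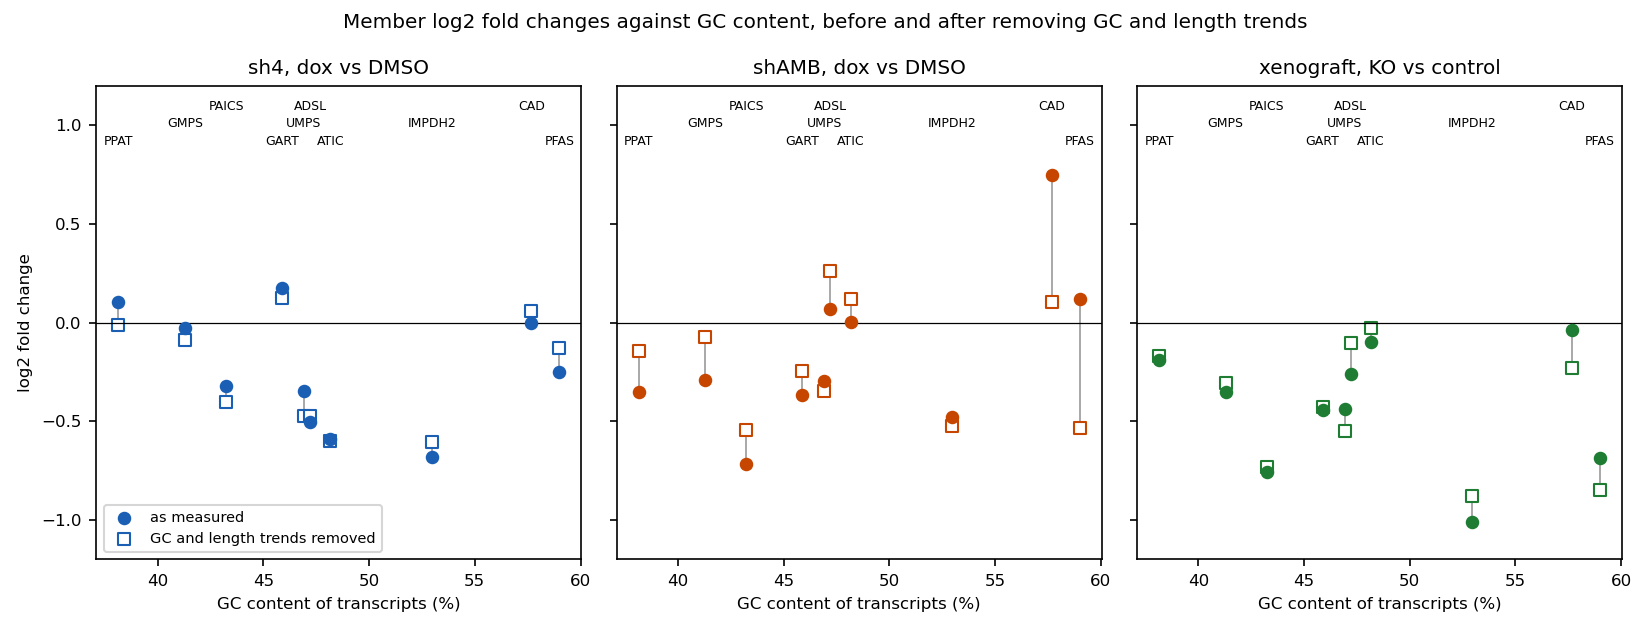
Log2 fold change (linear axis) of each enzyme against the GC content of its transcripts (%), as measured (filled circles) and with GC and length trends removed (open squares), in sh4, shAMB and tumor comparisons. In shAMB the gray lines are longest at the GC-rich end, where CAD goes from 0.75 to 0.10 and PFAS from 0.12 to -0.54; IMPDH2, UMPS and PAICS keep values below 0 in all 3 panels.

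In tumors labelled RUNX1T1 KO 6 enzymes were lower than in control tumors and none was higher. These were IMPDH2, PAICS, PFAS, GART, UMPS and GMPS. Over all 15960 genes tested 41.1% were called, 19.9% lower and 21.2% higher. The median log2 fold change of the enzymes was -0.40, against 0.02 over all genes, and all 10 single values were negative.

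IMPDH2 had 187, 172, 220.1 and 208 CPM in control tumors and 124, 86.8, 96.4 and 83.8 CPM in KO tumors. The 2 groups did not overlap, and the log2 fold change of -1.01 ± 0.13 (adjusted p = 0.000191) was the largest of any enzyme in any of the 4 main comparisons. PAICS had 671, 509.8, 577 and 603 CPM in control tumors and 338, 333, 352 and 372 CPM in KO tumors, also without overlap (-0.76 ± 0.10, adjusted p = 0.000195). PFAS, which acts midway along the purine chain, had 120.4, 154, 165 and 143 CPM in control tumors and 119, 82.7, 88.4 and 71.8 CPM in KO tumors. The highest KO tumor lay just under the lowest control tumor, and the log2 fold change was -0.69 ± 0.15 (adjusted p = 0.0042).

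GART went from 198 to 269 CPM in controls to 161 to 192 CPM in KO tumors (-0.44 ± 0.11, adjusted p = 0.00635). UMPS had 180.3, 155, 173 and 161 CPM in control tumors and 127, 123, 121 and 123 CPM in KO tumors (-0.44 ± 0.08, adjusted p = 0.00115). The KO tumors lay close together in UMPS, with an SD of 2.36 CPM against 11.5 CPM among controls. GMPS overlapped between groups, at 169 to 232 and 148 to 169.7 CPM. Its log2 fold change of -0.35 ± 0.11 (adjusted p = 0.0202) lost its call without control tumor 4 (-0.33, adjusted p = 0.059). ADSL gave -0.26 ± 0.11 and did not pass (adjusted p = 0.0694), but passed without control tumor 2 (-0.34, adjusted p = 0.0157) and without KO tumor 3 (-0.31, adjusted p = 0.0475), and with no filter on low counts (-0.33, adjusted p = 0.0396). PPAT, ATIC and CAD gave -0.19, -0.10 and -0.04 and did not pass. With GC and length trends removed CAD was at -0.23 (adjusted p = 0.0109). Genes for small RNAs took 7.08% to 18.3% of counts in the tumors, most in control tumor 2 and KO tumor 1, and 0.739% to 1.57% in culture; with these genes left out the same 6 enzymes were called. Whether reads from mouse cells were removed is not given in the sources used here. In bulk tumors fewer cells of a type and less RNA per cell cannot be told apart.

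**Figure D3:**
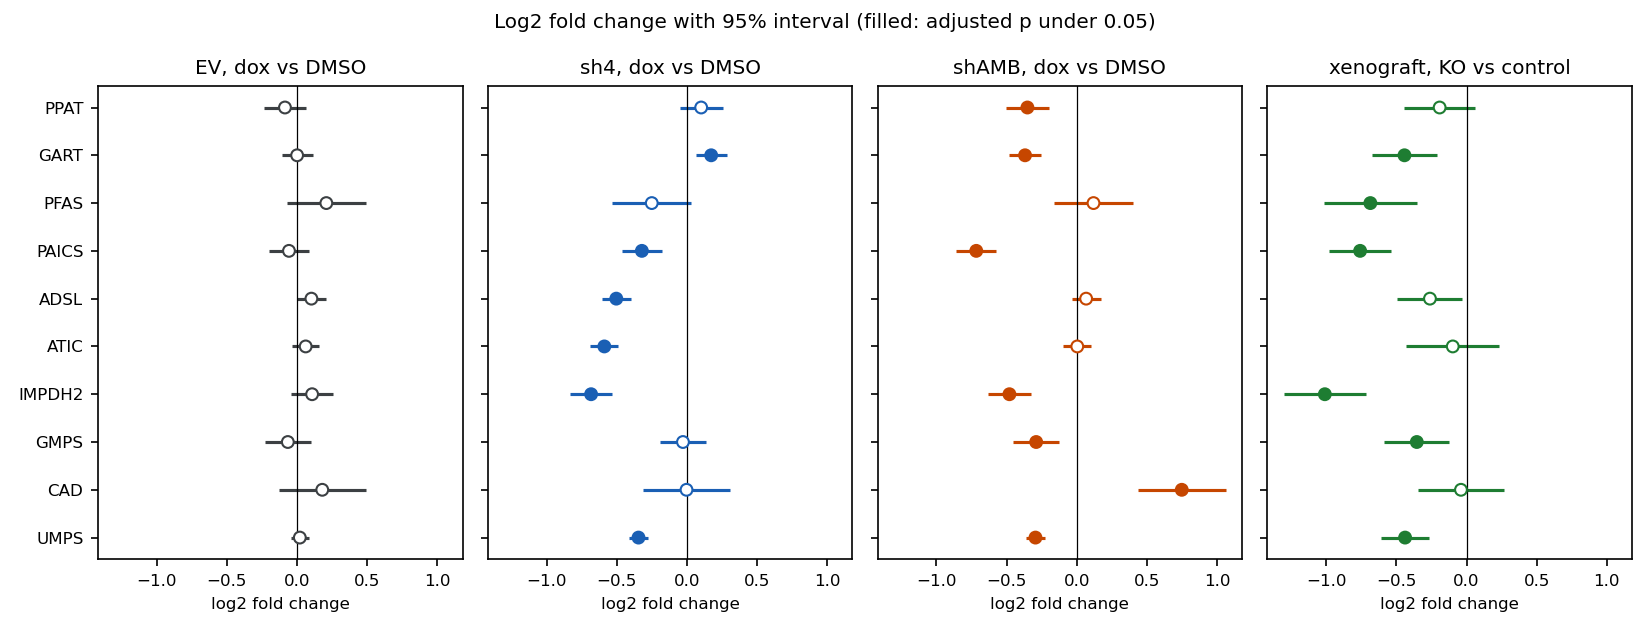
Log2 fold change of each enzyme with its 95% interval in the 4 main comparisons, filled where the adjusted p was under 0.05. Intervals in the EV panel all cross 0; IMPDH2, PAICS and UMPS lie left of 0 in the other 3 panels, from -0.29 for UMPS in shAMB to -1.01 for IMPDH2 in tumors.

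PAICS, IMPDH2 and UMPS were lower in sh4 cells, shAMB cells and KO tumors alike. Since shAMB cells and tumors may share a hairpin, these 3 comparisons may not stand for 3 separate hairpins. That is 3 of 10 enzymes, and 5.03% of the 14670 genes tested in both tables were lower in all 3 comparisons. Whether the doxycycline response differed from that of the empty vector was tested directly, as a difference of differences. For sh4 this difference was called for 5 of 10 enzymes, all lower, with 32.6% of all genes called. The values were -0.79 ± 0.10 for IMPDH2, -0.65 ± 0.07 for ATIC, -0.61 ± 0.07 for ADSL, -0.36 ± 0.04 for UMPS and -0.26 ± 0.09 for PAICS. The PAICS difference (adjusted p = 0.0421) was lost without any 1 of 12 of the 18 libraries, with values of -0.28 to -0.19 and adjusted p of 0.0504 to 0.0889. These were EV DMSO replicates 2 and 3, EV doxycycline replicates 1, 2 and 3, sh4 DMSO replicates 2 and 3, sh4 doxycycline replicates 2 and 3, shAMB DMSO replicates 1 and 3 and shAMB doxycycline replicate 2, all of which enter 1 shared estimate of the spread. It was also lost with RLE factors (-0.25, adjusted p = 0.0889), with DESeq2 (-0.25, adjusted p = 0.0766) and with no filter (-0.29, adjusted p = 0.0504). PPAT, GART, GMPS, CAD and PFAS, at 0.19, 0.17, 0.04, -0.18 and -0.46, were not called. PFAS was called by DESeq2 (-0.45, adjusted p = 0.0396) and without EV DMSO replicate 3 (-0.55), sh4 DMSO replicate 3 (-0.56) or sh4 doxycycline replicate 3 (-0.64).

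For shAMB against the empty vector 6 of 10 enzymes were called, with 45.5% of all genes. PAICS differed by -0.66 ± 0.09, IMPDH2 by -0.59 ± 0.10, GART by -0.37 ± 0.07, UMPS by -0.31 ± 0.04 and PPAT by -0.27 ± 0.10, and CAD by 0.57 ± 0.21. The PPAT difference (adjusted p = 0.0439) was lost without any 1 of 11 libraries, with adjusted p from 0.0507 to 0.112. These were EV DMSO replicates 2 and 3, EV doxycycline replicates 1, 2 and 3, sh4 DMSO replicate 2, sh4 doxycycline replicate 2, shAMB DMSO replicates 2 and 3 and shAMB doxycycline replicates 2 and 3. The CAD difference (adjusted p = 0.0346) was lost without any 1 of 7 libraries, EV DMSO replicate 2 or 3, EV doxycycline replicate 1 or 3, shAMB DMSO replicate 2 or shAMB doxycycline replicate 2 or 3, with adjusted p from 0.0526 to 0.0975. GMPS, PFAS, ATIC and ADSL, at -0.22, -0.09, -0.06 and -0.04, were not called. With GC and length trends removed CAD differed by 0.08 (adjusted p = 0.0478).

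The 2 hairpin lines also differed from each other. The doxycycline response was higher in sh4 than in shAMB for GART by 0.54 ± 0.07, PPAT by 0.45 ± 0.10 and PAICS by 0.40 ± 0.09. It was lower in sh4 for CAD (-0.75 ± 0.21), ATIC (-0.59 ± 0.07) and ADSL (-0.57 ± 0.07). These 6 of 10 stand beside 60.9% of all genes. IMPDH2 and UMPS were not called, with differences of -0.20 (95% interval -0.42 to 0.01) and -0.05 (-0.14 to 0.04). GMPS lay at the threshold, at 0.26 ± 0.11 (adjusted p = 0.0501), and was called with RLE factors (0.33, adjusted p = 0.0296) and by DESeq2 (0.33, adjusted p = 0.0215). Without sh4 doxycycline replicate 3 GMPS, IMPDH2 and PFAS were all called, at 0.38, -0.25 and -0.52. With GC and length trends removed the CAD difference was -0.04 and not called (adjusted p = 0.282), and PFAS changed from -0.37, not called, to 0.41 (adjusted p = 6.21e-07). ATIC and ADSL had differences of -0.72 and -0.74 under that removal, and UMPS was called at -0.12.

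The unequal behavior of PAICS and PPAT was chosen for a closer look after their values had been seen. Within each library the PAICS count was divided by the PPAT count, which cancels library scaling. EV cells gave 3.93, 4.19 and 4.15 on DMSO and 4.18, 4.17 and 4.14 on doxycycline. In sh4 cells the DMSO ratios of 4.15, 4.14 and 4.16 compared with 3.1, 3.09 and 3.09 on doxycycline. For shAMB cells they were 4.28, 4.05 and 4.04 on DMSO and 3.19, 3.23 and 3.18 on doxycycline. The ratio was thus lower in every doxycycline library of both hairpin lines than in any DMSO library.

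Control tumors gave ratios of 2.83, 3.07, 2.78 and 3.04, and KO tumors gave 2.2, 1.84, 1.88 and 2.0. On a log2 scale the ratio changed by 0.03 for EV, -0.42 for sh4, -0.37 for shAMB and -0.57 for tumors. Two-sided exact permutation tests gave p = 0.7, 0.1, 0.1 and 0.0286, the last 3 being the smallest these designs allow. Adjusted over the 4 comparisons the exact permutation p were 0.7, 0.133, 0.133 and 0.114. None passed 0.05, and with so few libraries none could have, so these adjusted values do not decide whether the ratio changed. Removing GC and length trends gave changes of -0.01, -0.39, -0.40 and -0.56.

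**Figure D4:**
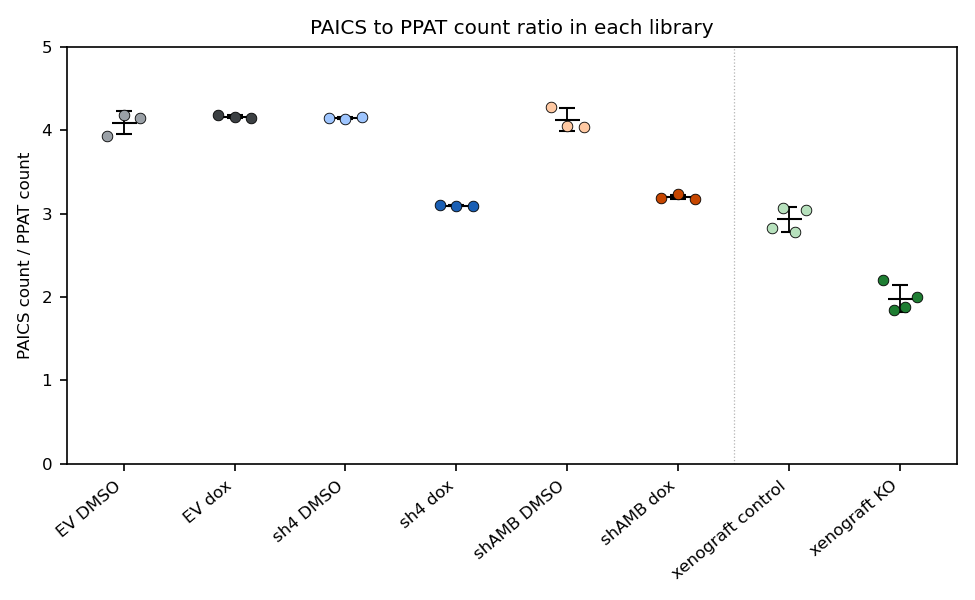
PAICS count divided by PPAT count (linear axis from 0) in each of the 26 libraries, with group means and bars of 1 SD. The 6 doxycycline libraries of the hairpin lines sit between 3.09 and 3.23, below the DMSO libraries at 4.04 to 4.28, and KO tumors at 1.84 to 2.2 sit below control tumors at 2.78 to 3.07.

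MYCN, the amplified oncogene of this line, rose in the same comparisons. It stood at 2035 to 2323 CPM with DMSO in the 3 lines. Doxycycline libraries had 2234 to 2359 CPM for EV, 3202 to 4090 CPM for sh4 and 5944 to 6561 CPM for shAMB. Control tumors had 2433 to 2887 CPM and KO tumors 6112 to 8211 CPM. Its log2 fold change was 0.68 ± 0.08 in sh4, 1.57 ± 0.08 in shAMB and 1.46 ± 0.14 in tumors (adjusted p = 4.62e-06, 1.8e-10 and 3.14e-05), and 0.07 in EV (adjusted p = 0.701). Its part in the changes of the enzymes was not tested.

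The rest of nucleotide metabolism was read from 5 further lists of 36 genes, of which 32 were tested in culture and 34 in tumors. In EV 0 of 32 were called, and 3 had an unadjusted p under 0.05. Of the 32, 9 rose and 9 fell in sh4, where 22.9% of all genes were higher and 18% lower. In shAMB 3 rose and 19 fell, beside 37.6% and 28.4% of all genes. In tumors 3 of 34 rose and 18 fell, beside 21.2% and 19.9%.

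PRPS1 and PRPS2 make PRPP, the substrate shared by both routes, and HPRT1 salvages purine bases. PRPS1 fell in all 3 comparisons, by 0.36 in sh4, 0.32 in shAMB and 0.34 in tumors. PRPS2 rose by 0.28 in sh4 but fell by 1.08 in shAMB, where its mean went from 50.5 to 23.8 CPM, and fell by 1.03 in tumors, from 46.3 to 22.7 CPM. HPRT1 fell by 0.30 in sh4 and 0.31 in shAMB and was at -0.25 in tumors, not called. Of the 5 genes of this list 3 fell and 1 rose in sh4, 4 fell in shAMB and 2 fell in tumors. Among all genes 18% fell and 22.9% rose in sh4, 28.4% fell in shAMB and 19.9% fell in tumors.

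IMPDH1, the isozyme of IMPDH2, fell in the same 3 comparisons, by 0.79 ± 0.24 in sh4, 0.62 ± 0.24 in shAMB and 1.11 ± 0.22 in tumors. ADSS (ADSS2), which leads from inosine to adenine nucleotides, rose by 0.72 in sh4 and fell by 0.38 in shAMB. CTPS1, which makes cytidine triphosphate, was at 0.04 in sh4, not called, and fell by 0.31 in shAMB and 0.41 in tumors. DHODH, the mitochondrial enzyme between CAD and UMPS, was not called in any, at -0.27, 0.19 and -0.28. ADSSL1, the muscle-type isozyme, had the largest change of the list in tumors at 2.77, but at 0.0432 against 0.309 CPM it was barely detected.

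Among the deoxynucleotide genes, which feed DNA synthesis, 2 of 9 rose and 2 fell in sh4, beside 22.9% and 18% of all genes. In shAMB 6 of 9 fell and in tumors 7 of 9 fell, against 28.4% and 19.9% of all genes. The difference between sh4 and shAMB was called for 8 of 9, against 60.9% of all genes. RRM2, a subunit of ribonucleotide reductase, was at 0.14 in sh4 (adjusted p = 0.0921) and fell by 0.84 in shAMB, from 859 to 481 CPM, and by 1.03 in tumors, from 523 to 255 CPM. DTYMK, the thymidylate kinase, fell by 0.73 in sh4. DUT, which clears dUTP, fell by 0.84 in shAMB, and TK1, the salvage kinase for thymidine, fell by 1.09 in tumors.

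Among the 5 pyrimidine and nucleoside kinases 1 rose and 3 fell in sh4, 2 fell in shAMB and 3 fell in tumors. CMPK1, which phosphorylates UMP and CMP, rose by 0.75 in sh4, from 110.1 to 185 CPM, and fell by 0.43 in shAMB, from 134 to 99.5 CPM. UCK1, a uridine and cytidine kinase, fell by 0.40 in tumors. Of the breakdown genes tested, 4 of 8 were higher and none lower in sh4, 3 higher and 3 lower in shAMB, and 2 higher and 3 lower of 9 in tumors. Beside both lists stand 22.9% of all genes higher and 18% lower in sh4, and 37.6% and 28.4% in shAMB. In tumors the shares were 21.2% and 19.9%, and in shAMB the breakdown counts were near the background. NT5E, the cell surface nucleotidase that yields adenosine, rose by 0.88 in sh4, by 1.04 in shAMB and by 2.52 in tumors, there from 1.34 to 7.7 CPM. In culture its means were low, from 2.03 to 3.75 CPM in sh4 and from 1.55 to 3.19 CPM in shAMB. With doxycycline in EV it went from 1.31 to 1.87 CPM without overlap, a value of 0.51 that was not called (adjusted p = 0.42). UPP1, uridine phosphorylase, rose by 1.68 in shAMB, from 2.23 to 7.15 CPM, and by 1.44 in tumors, from 3.23 to 8.74 CPM, and was at -0.16 in sh4, not called.

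**Figure D5:**
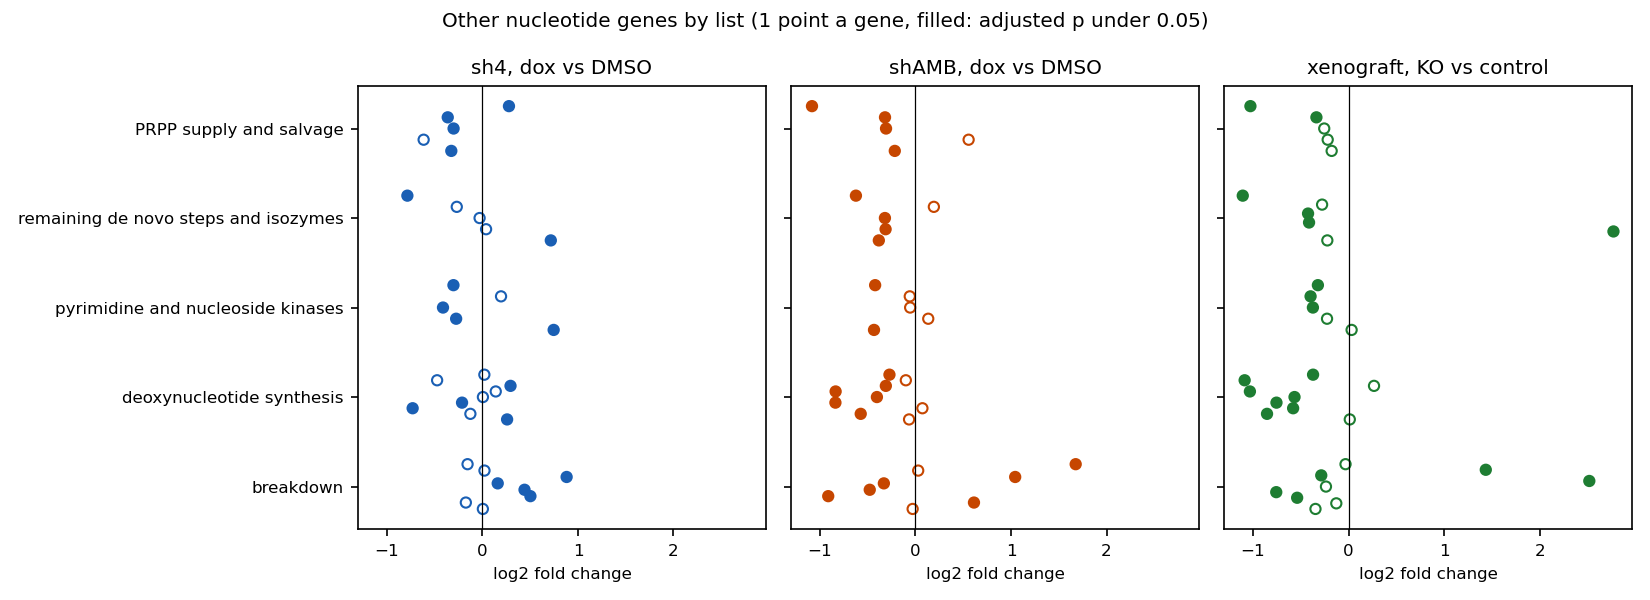
Log2 fold change of each other nucleotide gene tested, by list, in sh4, shAMB and tumor comparisons, with 1 point per gene, filled where the adjusted p was under 0.05. Deoxynucleotide genes spread around 0 in sh4 and lie mostly left of 0 in shAMB and tumors, while the points farthest right in the breakdown list are NT5E and UPP1.

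Likeness was measured for 8755 other genes whose mean reached 10 CPM in both tables. Those with log2 fold changes in the 4 main comparisons nearest to the enzymes' medians were RNF7, TFIP11, RND3, CHCHD1 and CS, at root mean square differences of 0.0243 to 0.03. CS is citrate synthase.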

How the data were processed

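RNA from 18 KELLY cultures and 8 KELLY xenografts was sequenced as paired reads. The protocol in the labels describes a total RNA kit that keeps strand, while their molecule field says polyA RNA, and this is not settled. The authors deposited tables of expected counts per gene (RSEM style, with decimals), 1 for cultures and 1 for xenografts, beside TPM tables whose values were not used here. The submitters' processing notes name STAR, SAMtools, RSEM and hg38; versions, annotation and strand settings for these libraries are not given in the labels, and the study's methods state versions only for its libraries of mouse ganglia. Rounded to integers, they were filtered with filterByExpr, TMM normalized and fitted per table with edgeR 4.0.16 (R 4.3.3) by quasi-likelihood F tests, with all groups of a table sharing 1 estimate of the spread and Benjamini-Hochberg adjustment over all tested genes. The edgeR steps alone were also run on simulated counts. Few genes were changed there, as many up as down, so normalization under changes as broad as those seen here was not tested. GC content came from GENCODE transcripts and was found for 91.1% of genes tested in culture and 89.9% in xenografts. Its trend was fitted with splines of 5 degrees of freedom together with that of length and then removed. Levels per kilobase used the deposited gene length. Library totals were 35115915 or more, but how much of the spread between libraries is counting error was not tested gene by gene. It may be a large part where the spread is small, as for UMPS in sh4 cells on DMSO (SD 2.03 CPM at a mean of 175 CPM). Alternatives were RLE factors, no filter, DESeq2 1.42.0, a replicate block, GC and length trends removed, small RNA genes left out and each library left out in turn; for the PAICS to PPAT ratio they were chosen after seeing the data. The enzymes and all gene lists were chosen with earlier results of these data known. All 10 enzymes were tested in every comparison. From the other lists IMPDH1, DHODH, CTPS1, HPRT1, PRPS2 and RRM2 are always named, with the called gene of largest change in sh4, shAMB and xenografts.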

Additional observations from a re-analysis of the deposited data

Results flagged for a closer look

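The doxycycline response of an enzyme differed between lines, by edgeR's test of the difference itself, in 17 of 30 tests (10 enzymes, 3 pairs of lines). These were 5, 6 and 6 of 10 for sh4 against EV, shAMB against EV and sh4 against shAMB, where 32.6%, 45.5% and 60.9% of all genes were called. These comparisons share libraries. For sh4 against EV the log2 differences were -0.79 for IMPDH2, -0.65 for ATIC, -0.61 for ADSL, -0.36 for UMPS and -0.26 for PAICS. For shAMB against EV they were -0.66 for PAICS, -0.59 for IMPDH2, -0.37 for GART, -0.31 for UMPS and -0.27 for PPAT, and 0.57 for CAD. For sh4 against shAMB they were 0.54 for GART, 0.45 for PPAT and 0.40 for PAICS, and -0.75 for CAD, -0.59 for ATIC and -0.57 for ADSL. No tumor stood apart from its group by Dixon's test in any of the 20 sets of 4 (10 enzymes in 2 groups).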

How the results depend on the processing

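PAICS, IMPDH2 and UMPS stayed called and lower in sh4, shAMB and tumors under each alternative run. With each library left out in turn the number of enzymes called ran from 5 to 7 in sh4, 7 to 7 in shAMB, 5 to 7 in tumors, 4 to 7 for sh4 against EV, 4 to 7 for shAMB against EV and 6 to 9 for sh4 against shAMB, and was 0 in EV and in both DMSO comparisons. Removing GC and length trends raised it from 5 to 8 for sh4 against EV and from 0 to 1 in each DMSO comparison. It also added calls for PFAS and GMPS in sh4, for PFAS, ADSL and ATIC in shAMB, and for CAD in tumors. For shAMB against EV it added PFAS, ADSL and GMPS, and for sh4 against shAMB it added PFAS and UMPS and lost CAD. Among all genes the removal raised calls from 4856 to 6750 for sh4 against EV and from 9840 to 10777 in shAMB. It turned the sign of 17 of the 90 values, of which 13 were called neither before nor after. The other 4, called after it, were PFAS in shAMB (-0.54), GMPS for sh4 against EV (-0.10), ADSL for shAMB against EV (0.16) and PFAS for sh4 against shAMB (0.41); the cause was not tested. It also moved the number of all genes called from 14 to 65 in EV, 167 to 910 for DMSO sh4 against EV and 227 to 927 for DMSO shAMB against EV, and DESeq2 gave 351 for the DMSO comparison of sh4. Equal replicate numbers did not mark pairs (correlations of deviations in tumors -0.497, -0.0134, 0.374 and -0.145). With a replicate block the calls were 0 for EV, 6 for sh4, 7 for shAMB and 5 for tumors, where GMPS was at -0.35 (adjusted p = 0.0663), the only call of 90 to change.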
